A study of Mus musculus with 8 samples.

Results

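The 31 genes described here carry cholesterol metabolism in C2C12 myotubes: 18 enzymes that build cholesterol from acetyl-CoA, 4 genes that control the transcription factor SREBP2, 4 genes of lipoprotein uptake and intracellular sterol transport, and 5 genes of efflux and storage. They were chosen by name and role, with earlier results of these data known. Each was read through the probe sets annotated with its symbol alone. Of the 31 genes 27 had such a probe set, and all 27 passed the filter on dim signals, among 8352 genes tested in all. Acat2, the cytosolic acetoacetyl-CoA thiolase, Insig1, a sterol sensor of the endoplasmic reticulum, Soat1, which esterifies cholesterol for storage, and Nr1h2, the beta form of the liver X receptor, had no such probe set in the annotation used here and are not analysed.

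C2C12 is an established mouse myoblast line that fuses into myotubes when serum is lowered. Both groups were grown in 10% serum, then differentiated in DMEM with 2% horse serum, and were fed alike up to day 4. Control myotubes were then re-fed every 48 h, whereas starved myotubes received no fresh medium for 4 days, and total RNA of both was taken on day 8. Starvation here therefore means that the medium was not renewed. The control group has 4 arrays, A to D, and so has the starved group, E to H. Nothing in the labels says whether these come from separate cultures, and if they do not, the p-values reflect technical spread alone.

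Cells make cholesterol by joining acetyl-CoA units to mevalonate, turning mevalonate into isoprenoid units, condensing these to squalene, and closing squalene to lanosterol, which is trimmed to cholesterol. SREBP2, the product of Srebf2, switches on the enzymes of this route when sterols in the endoplasmic reticulum are low: its escort Scap then carries it to the Golgi for cleavage, while Insig proteins hold both back when sterols are high. In the opposite direction the liver X receptors, which sense oxysterols, switch on the exporters Abca1 and Abcg1. Skeletal muscle uses cholesterol mainly in its plasma membrane and in the tubules that carry the action potential into the fibre.

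Signals are log2 of the deposited intensity plus an offset of 10.9, after quantile normalization of the 8 arrays. Errors of a group mean are SDs (n = 4), errors of a log2 fold change are standard errors from limma, and adjusted p-values are Benjamini-Hochberg values from limma over all 13575 probe sets tested. A gene is called where its adjusted p is below 0.05, and its values are those of its brightest probe set. All 8 of 8 myotube markers were bright enough to be tested, among them skeletal actin (Acta1), troponins and Myog, and their summed signal was 69277 to 71423 intensity units in control arrays and 65442 to 67702 in starved arrays. Of these 8 markers Des fell by 0.22 ± 0.05 (limma, adjusted p = 0.0153) and the others were not called. Among all 8352 tested genes 6.94% were called lower. The log2 fold change was negative for 7 of the 8 markers, with a median of -0.12. An unadjusted p below 0.05 (limma) was reached by 4 of the 8, against 2030 of all tested genes. All 4 starved arrays lay below all 4 control arrays for 3 markers and above them for 1, against 10.2% and 8.23% of all tested genes. Of 6 adipocyte markers 1 was bright enough to be tested, and of 6 macrophage markers 4 were, with 0 called in either list (limma, lowest unadjusted p = 0.0433). With 6.94% of all tested genes called lower and 4.25% higher, 0 calls among so few markers do not show whether these cell types changed. The deposited arrays differed in brightness, with trimmed means from 243 to 455, and the starved arrays were dimmer by 0.38 on the log2 scale (two-sided exact permutation test over 70 labellings, p = 0.0857, n = 4 per group). Control B stood apart in RNA quality: the log2 ratio of its Gapdh probe set near the 3′ end to that near the 5′ end was 1.40, against -0.23 to -0.04 in the other arrays.

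Starved myotubes had less mRNA for most of the synthesis pathway, with large falls of Cyp51, Idi1, Msmo1 and Hmgcs1, and no member of the efflux genes was called. Of the 17 synthesis enzymes tested 13 fell, 0 rose and 4 were not called, and without control B 14 fell. Over all 8352 tested genes 6.94% were called lower and 4.25% higher (12.3% and 0.539% where the deposited values are left unscaled). The median log2 fold change of the 17 enzymes was -0.87, that of the 3 efflux genes tested 0.06, and that of all tested genes 0.01. All 4 starved arrays lay below all 4 control arrays for 14 of the 17 enzymes, against 10.2% of all tested genes in that direction. The reverse order, with the starved arrays on top, was found for 0 of the 17 enzymes and for 8.23% of all genes. In RNA from a whole culture, fewer cells of a type and less RNA per cell cannot be told apart.

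**Figure D1:**
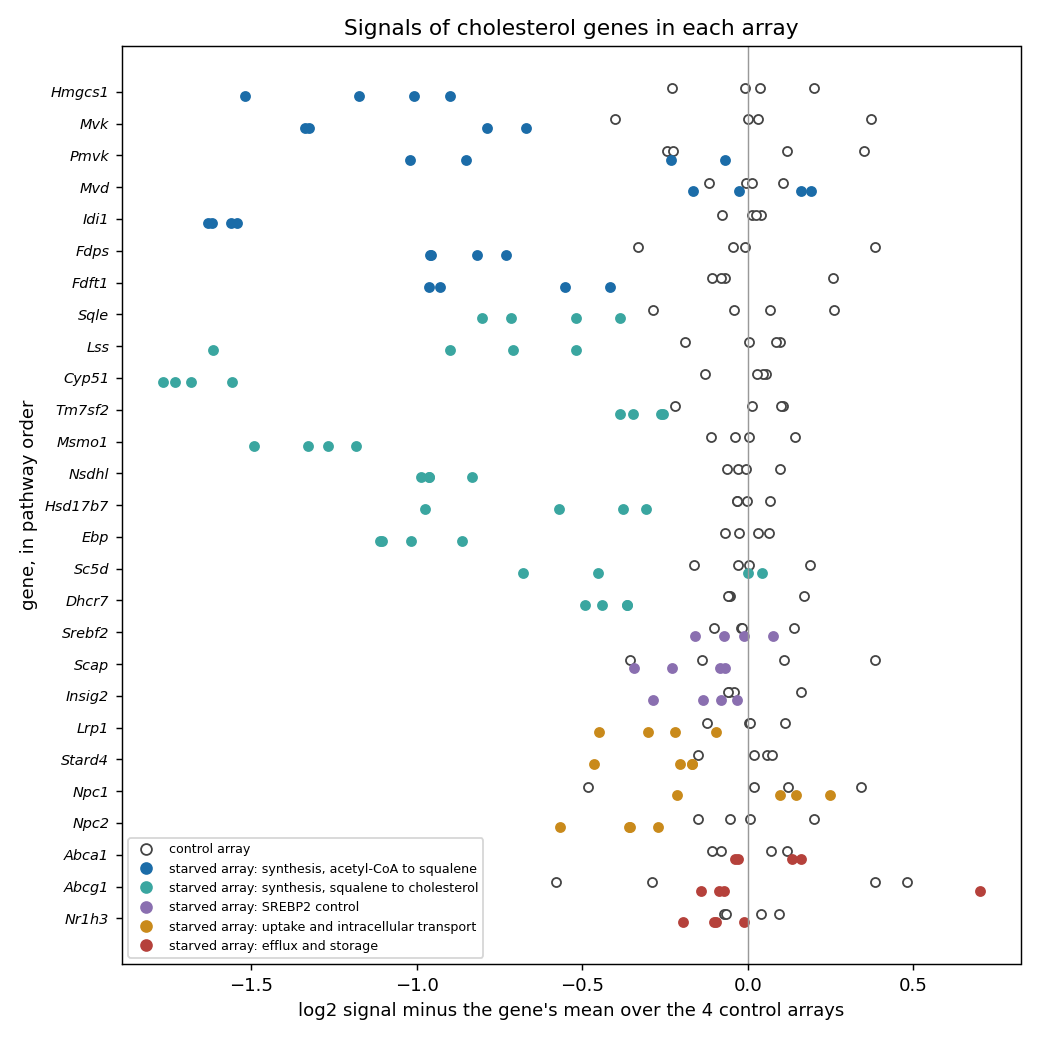
Log2 signal of each of the 27 measured genes in each array, set to the mean of the gene's 4 control arrays (horizontal axis, log2 units), with genes in pathway order from top to bottom. Open circles are control arrays and filled circles starved arrays, coloured by role; the starved arrays of 14 synthesis enzymes lie wholly to the left of the controls, whereas those of Abca1, Abcg1 and Nr1h3 mix with the controls.

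The early steps, from acetyl-CoA to squalene, were lower in 5 of 7 tested enzymes. Hmgcs1, which makes HMG-CoA, had signals of 11.15, 11.37, 11.58 and 11.41 in controls A to D and of 10.37, 9.85, 10.48 and 10.20 in starved E to H. Every starved array was below every control, and Hmgcs1 fell by 1.15 ± 0.14 (2.22-fold lower; adjusted p = 0.000272). Its other 3 probe sets also were called, with log2 fold changes down to -1.76.

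Idi1, which interconverts the isoprenoid building blocks, stood at 9.65, 9.63, 9.54 and 9.64 in the controls and at 8.05, 7.98, 7.99 and 8.07 in the starved arrays. The arrays of each group were close together, with SDs of 0.05 and 0.04, and the groups were far apart. Idi1 fell by 1.59 ± 0.09 (3.01-fold lower, limma, adjusted p = 1.14e-06), and its other probe set gave -1.58. That other probe set had means of 8.02 in control and 6.44 in starved arrays. Its starved mean lay below 6.61, the limit that the filter on dim signals set for the mean of all arrays. Only 29 of the 8352 genes had a lower log2 fold change than Idi1, whose rank from the lowest was 30.

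Mevalonate kinase (Mvk) had signals of 7.32, 8.09, 7.72 and 7.75 in controls and 7.05, 6.39, 6.93 and 6.38 in starved arrays. It fell by 1.03 ± 0.22 (adjusted p = 0.0111), with a wider spread than Idi1 in both groups. The next kinase of the route, Pmvk, had control signals of 8.40, 8.17, 7.80 and 7.82 and starved signals of 7.03, 7.82, 7.98 and 7.20. The groups overlapped, since starved F and G were as bright as controls C and D, and the log2 fold change of -0.54 ± 0.23 was not called (adjusted p = 0.178). Without scaling Pmvk passed the threshold as lower (-0.88, adjusted p = 0.0441).

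Mvd, the decarboxylase that ends the mevalonate steps, gave different values from its probe sets. The brighter probe set had means of 8.40 ± 0.09 and 8.44 ± 0.17 in control and starved arrays, a difference of 0.04 ± 0.12 (adjusted p = 0.873). The other had means of 8.58 ± 0.17 and 7.72 ± 0.22, a fall of 0.86 ± 0.14 (adjusted p = 0.00235) with no overlap between groups. With the mean of both, Mvd was called lower (-0.41, adjusted p = 0.0312), so the direction for Mvd rests on which probe set is read.

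Farnesyl diphosphate synthase (Fdps), at the branch to isoprenoids for protein prenylation, had signals of 11.41, 11.08, 11.80 and 11.37 in controls and 10.45, 10.46, 10.69 and 10.60 in starved arrays. It fell by 0.87 ± 0.13 (adjusted p = 0.00153), although the controls ranged more widely than the starved arrays. Squalene synthase (Fdft1), which commits farnesyl diphosphate to sterols, stood at 10.17, 10.13, 10.49 and 10.16 in controls and at 9.82, 9.69, 9.28 and 9.31 in starved arrays. It fell by 0.71 ± 0.14 (adjusted p = 0.00746). Its second probe set gave -0.93 and was called, while the 2 dimmer ones gave 0.12 and 0.10 with standard errors of 0.30 and 0.49. The mean of all 4 was -0.36 and was not called (adjusted p = 0.23).

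The late steps, from squalene to cholesterol, were lower in 8 of 10 tested enzymes. Squalene epoxidase (Sqle), the first oxygen-dependent step of this stretch, had signals of 9.59, 10.14, 9.84 and 9.94 in controls and 9.49, 9.36, 9.08 and 9.16 in starved arrays. It fell by 0.60 ± 0.13 (adjusted p = 0.0146), and starved E came close to control A. Lanosterol synthase (Lss) had control signals of 8.14, 7.85, 8.05 and 8.13 and starved signals of 6.42, 7.14, 7.52 and 7.33. Starved E was the lowest of these, and Lss fell by 0.94 ± 0.22 (adjusted p = 0.0179). That call was lost without control A or without control D (adjusted p = 0.0537 and 0.0519).

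Cyp51, the cytochrome P450 that demethylates lanosterol, had the lowest log2 fold change of the 27 genes when each was read through its brightest probe set. Its signals were 10.04, 10.03, 9.86 and 10.01 in controls and 8.43, 8.22, 8.30 and 8.25 in starved arrays. The groups were separated by far more than the spread within either, and Cyp51 fell by 1.69 ± 0.09 (3.22-fold lower; adjusted p = 1.14e-06). Its second tested probe set fell by 1.10 ± 0.18 (limma, adjusted p = 0.0027), from a mean of 7.66 in controls to 6.56 in starved arrays. That starved mean lay below 6.61, the limit of the filter on dim signals, which was applied to the mean of all arrays. With the mean of probe sets the order changed: Idi1 was at -1.58, Hmgcs1 at -1.42, Cyp51 at -1.39 and Msmo1 at -1.32.

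Tm7sf2, a sterol reductase that acts on the product of Cyp51, had signals of 8.92, 8.59, 8.83 and 8.91 in controls and 8.43, 8.55, 8.46 and 8.56 in starved arrays. The groups did not overlap, with control B just above the starved arrays, yet the log2 fold change of -0.31 ± 0.11 was not called (adjusted p = 0.0993). Without control B it was called lower (-0.38, adjusted p = 0.0363), and also with array weights (adjusted p = 0.0385).

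Msmo1, Nsdhl and Hsd17b7 act in turn to strip the remaining methyl groups from the sterol ring. Msmo1, the oxidase, stood at 9.26, 9.34, 9.52 and 9.38 in controls and at 8.05, 7.88, 8.19 and 8.11 in starved arrays. It fell by 1.32 ± 0.11 (2.49-fold lower; adjusted p = 1.77e-05). Nsdhl, the decarboxylating dehydrogenase, stood at 10.53, 10.37, 10.41 and 10.43 against 9.60, 9.47, 9.45 and 9.47, and fell by 0.94 ± 0.08 (adjusted p = 2.54e-05). The reductase Hsd17b7 had control signals of 8.69, 8.59, 8.59 and 8.62 and starved signals of 8.31, 8.24, 8.05 and 7.64. It fell by 0.56 ± 0.15 (adjusted p = 0.0331). The smaller fall of Hsd17b7 was near the threshold: its call was lost without control A, C or D, without starved G and without a brightness filter (adjusted p from 0.0537 to 0.0865).

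The sterol isomerase Ebp had signals of 11.55, 11.51, 11.65 and 11.61 in controls and 10.56, 10.47, 10.72 and 10.48 in starved arrays. The groups were well apart, and Ebp fell by 1.02 ± 0.08 (2.03-fold lower; adjusted p = 8.46e-06). Sc5d, the desaturase that follows it, ranged from 7.42 to 7.77 in controls and from 6.91 to 7.63 in starved arrays. These ranges overlapped, and its log2 fold change of -0.27 ± 0.18 was not called (adjusted p = 0.413). Dhcr7, a terminal reductase, stood at 10.68, 10.90, 10.68 and 10.67 in controls and at 10.29, 10.37, 10.24 and 10.37 in starved arrays. It fell by 0.41 ± 0.08 (1.33-fold lower; adjusted p = 0.00715), the smallest fall among the 13 called enzymes.

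**Figure D2:**
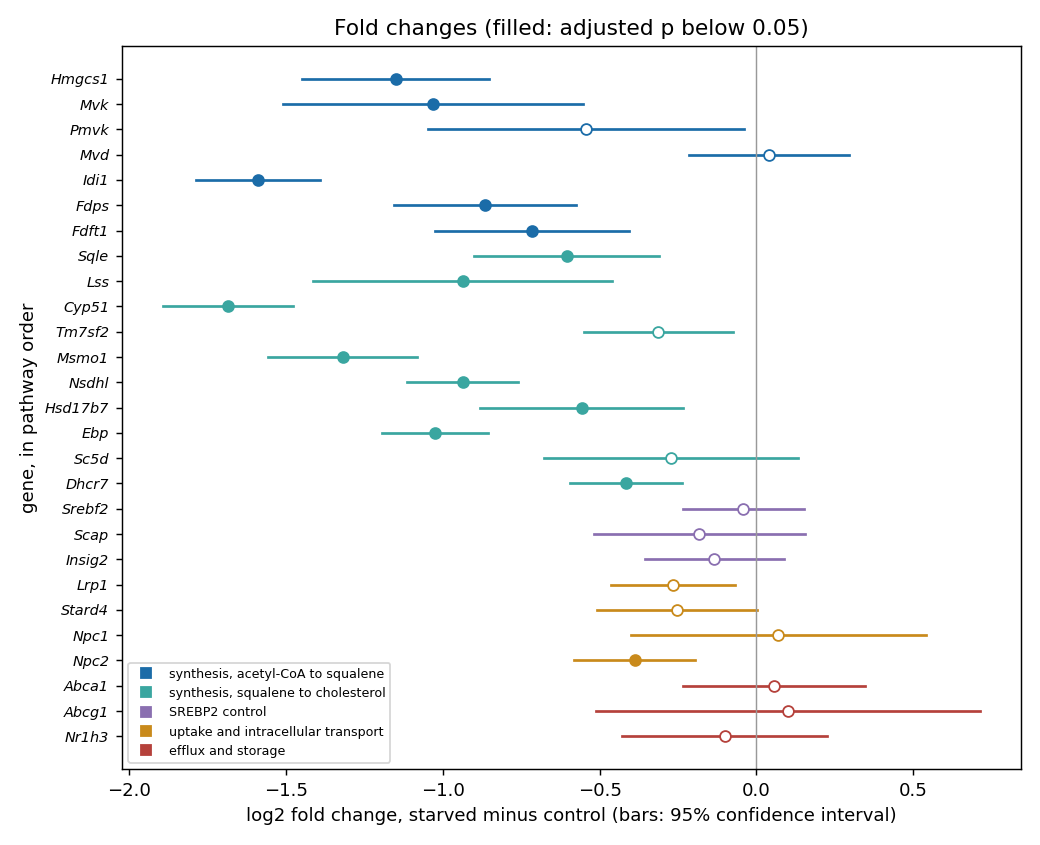
Log2 fold change, starved minus control, of each of the 27 genes with its 95% confidence interval from limma (horizontal axis, log2 units), in pathway order. Filled points are called; 13 synthesis enzymes and Npc2 are, from -1.69 for Cyp51 to -0.39 for Npc2, and the points of the SREBP2 control and efflux genes lie between -0.18 and 0.10.

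The early and the late stretch had median log2 fold changes of -0.87 over 7 enzymes and -0.77 over 10. The steps with the lowest values, Cyp51 and Msmo1 in the late stretch and Idi1 and Hmgcs1 in the early one, lie in both, by either reading of the probe sets. The 17 enzymes together were also even across the starved arrays: the median deviation from the control mean was -0.83, -0.90, -0.79 and -0.93 in starved E to H and between -0.03 and 0.02 in the controls. Starved G had 17 of 17 enzymes below their control mean, starved F and H 16 each, and starved E 15.

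Among all tested genes, read through the brightest probe set, the called synthesis enzymes lay towards the lower end. Cyp51 had rank 22 from the lowest of 8352, Idi1 rank 30, Msmo1 rank 55 and Hmgcs1 rank 86. The called enzyme nearest to the middle, Dhcr7, had rank 724. Mvd, read through its brighter probe set, had rank 4518.

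**Figure D3:**
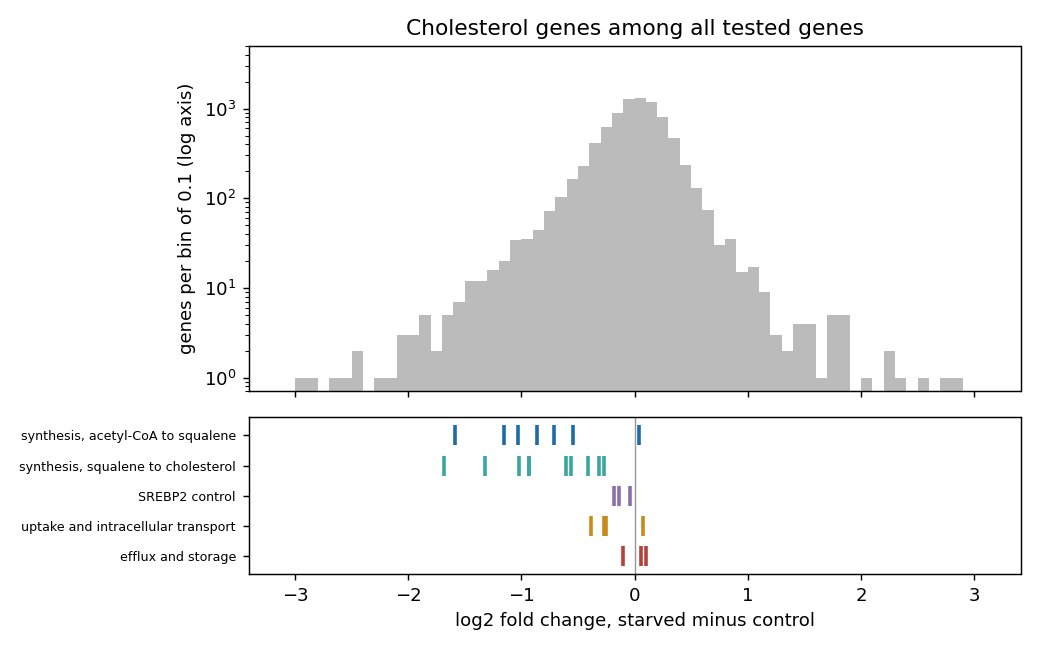
Log2 fold changes, starved minus control, of all 8352 tested genes as a histogram with bins of 0.1 (upper panel, log axis for the number of genes), with each of the 27 cholesterol genes as a tick in the lower panel, by role. The ticks of the synthesis enzymes spread from -1.69 to 0.04, and those of the 3 efflux genes lie between -0.10 and 0.10, near the peak of the histogram.

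The promoters of these enzymes and of the other members were searched for sites of SREBP2, of factors that work with it and of liver X receptors. Whether such sites have a part in the falls was not tested. The promoter table of RefSeq genes on GRCm38.p6 covers 250 bases before to 50 bases after each annotated start and holds 14 of the 17 tested enzymes. The motif CCAAT, the box bound by NF-Y, a partner of SREBP proteins at sterol genes, was present on either strand in the promoters of 14 of these 14 genes and in 42.4% of the 6777 tested genes with a promoter in the table. Counted by promoter, it was in 14 of 17 for the enzymes and in 36.7% of 8747 for the tested genes. Of the 3 efflux genes tested, Abca1 and Nr1h3 have promoters in the table, 3 in all, and 0 of these hold CCAAT. The box was not limited to enzymes: Srebf2 and Insig2 have it among 3 tested SREBP2 control genes with a promoter, and Npc2 among 2 uptake genes. Of the members without a probe set, Soat1, of the storage side, and Insig1 have it. The synthesis enzyme Acat2 and the receptor gene Nr1h2, also without a probe set, are in the promoter table and lack it. The Sp1 box, GGGCGG, was in 13 of the 14 enzyme genes and in 68.6% of the tested genes. TCACNCCAC, the core of a sterol regulatory element, was in 1 of the 14, Hmgcs1, and in 1.40% of the tested genes. A search for this core misses imperfect sterol elements, so it does not show that the other enzyme promoters lack one. The DR4 element of liver X receptors was searched as 2 perfect AGGTCA half-sites with 4 bases between them. It was in 0 of the members' promoters, in 0 of the 8747 promoters of tested genes and in 5 of all 32851. A perfect match this rare cannot tell the members from other genes, and the search misses imperfect elements, so it does not show that a promoter lacks one. In the members' promoters 0 pairs of matches of different motifs shared a base. Base composition was not matched between the groups of promoters, and a match is a description of the letters, not of a bound site.

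The 180 bases before the start are shown for the 5 enzymes with the largest fall that have a promoter in the table, and for Abca1 as the exporter. They are written 5′ to 3′ on the strand of the gene, and capitals mark CCAAT or its reverse complement ATTGG and, in Hmgcs1, the sterol element core TCACCCCAC.
Cyp51 (chr5:4104698-4104877, minus strand, GRCm38.p6): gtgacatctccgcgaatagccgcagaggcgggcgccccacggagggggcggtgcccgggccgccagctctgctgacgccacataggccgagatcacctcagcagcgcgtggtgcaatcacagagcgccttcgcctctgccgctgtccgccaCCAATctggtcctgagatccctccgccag
Idi1 (chr13:8885426-8885605, plus strand, GRCm38.p6): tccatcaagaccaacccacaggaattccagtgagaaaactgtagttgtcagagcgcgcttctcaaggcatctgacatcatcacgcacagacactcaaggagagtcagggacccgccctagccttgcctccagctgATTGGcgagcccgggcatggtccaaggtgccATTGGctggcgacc
Msmo1 (chr8:64733579-64733758, minus strand, GRCm38.p6): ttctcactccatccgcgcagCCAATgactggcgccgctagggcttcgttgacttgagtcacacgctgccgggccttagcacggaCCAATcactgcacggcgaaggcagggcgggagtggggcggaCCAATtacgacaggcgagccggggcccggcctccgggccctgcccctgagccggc
Hmgcs1 (chr13:119690171-119690350, plus strand, GRCm38.p6): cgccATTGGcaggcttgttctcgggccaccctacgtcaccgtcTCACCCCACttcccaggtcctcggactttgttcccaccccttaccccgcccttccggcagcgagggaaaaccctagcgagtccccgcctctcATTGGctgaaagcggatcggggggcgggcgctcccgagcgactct
Mvk (chr5:114444089-114444268, plus strand, GRCm38.p6): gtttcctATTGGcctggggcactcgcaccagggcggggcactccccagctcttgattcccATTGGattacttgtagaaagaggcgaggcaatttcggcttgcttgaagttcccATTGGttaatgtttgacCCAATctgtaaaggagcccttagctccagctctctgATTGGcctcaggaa
Abca1 (chr4:53159896-53160075, minus strand, GRCm38.p6): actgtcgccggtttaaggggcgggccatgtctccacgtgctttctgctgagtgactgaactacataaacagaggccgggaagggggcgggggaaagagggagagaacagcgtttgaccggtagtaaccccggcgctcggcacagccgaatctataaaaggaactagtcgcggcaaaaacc

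Within these windows Mvk holds 5 CCAAT boxes, Msmo1 3, Idi1 and Hmgcs1 2 each, Cyp51 1 and Abca1 0. Over the promoters of the 14 enzymes there were 32 boxes, 29 before the start, and 13 of the 14 genes had a box that begins within 100 bases before it, against 25.8% of the tested genes with a promoter. This window of 100 bases was chosen after the positions were seen. The enzymes that were not called also had the box: Pmvk, Mvd, Tm7sf2 and Sc5d all did.

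**Figure D4:**
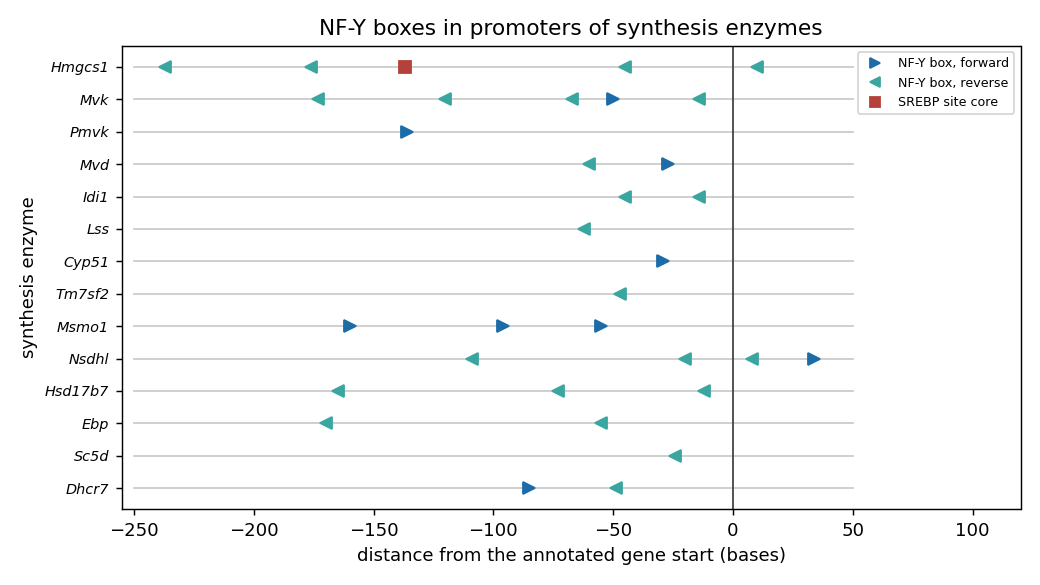
Positions of CCAAT boxes in the promoters of the 14 synthesis enzymes as distance from the annotated start (horizontal axis, bases; 0 is the first base of the gene), with triangles pointing right for the strand of the gene and left for the other strand. Each line is a promoter that holds a box, 14 in all, the square marks the sterol element core of Hmgcs1, and 29 of the 32 boxes lie before the start.

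The genes that control SREBP2 were not called at the level of mRNA. Srebf2 itself had signals of 10.24, 10.00, 10.08 and 10.08 in controls and 10.18, 10.09, 10.03 and 9.94 in starved arrays. The groups overlapped, although starved H was below every control, with a log2 fold change of -0.04 ± 0.09 and a 95% interval from -0.23 to 0.15 (adjusted p = 0.826), and its other probe set gave 0.15. Scap, the escort, ranged from 8.70 to 9.44 in controls, with control B highest, and from 8.71 to 8.99 in starved arrays (-0.18 ± 0.15, adjusted p = 0.528). Insig2, which retains SREBP2 with Scap in the endoplasmic reticulum, ranged from 9.03 to 9.25 and from 8.81 to 9.06 (-0.13 ± 0.10, adjusted p = 0.47). Its 3 probe sets lay between -0.18 and -0.05, with 0 called. The arrays measure mRNA and not the cleavage of SREBP2. An unadjusted p below 0.05 was reached by 0 of the 3 genes, against 2030 of all 8352 tested genes.

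Of the 4 uptake and transport genes 1 was called lower, against 6.94% of all tested genes. Their median log2 fold change was -0.26, against 0.01 for all tested genes, and 3 of the 4 values were negative. All 4 starved arrays lay below all 4 control arrays for 2 of these genes, against 10.2% of all tested genes. Npc2, the soluble lysosomal protein that hands cholesterol to Npc1, had signals of 12.12, 12.32, 11.97 and 12.06 in controls and 11.85, 11.76, 11.76 and 11.55 in starved arrays. It fell by 0.39 ± 0.09 (1.31-fold lower; adjusted p = 0.0161), and its second probe set fell by 0.35 ± 0.09 (adjusted p = 0.0246). The call of Npc2 was lost with median centring, with 75th percentile centring and without an intensity trend (adjusted p from 0.064 to 0.106). Npc1, the membrane protein of that pair, was dim and gave 0.07 ± 0.21 (95% interval -0.40 to 0.54, adjusted p = 0.88).

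Lrp1, a large endocytic receptor that also takes up lipoprotein remnants, had signals of 10.99, 10.86, 10.99 and 11.10 in controls and 10.89, 10.68, 10.77 and 10.54 in starved arrays. Starved E overlapped control B, and the difference of -0.27 ± 0.09 was not called (adjusted p = 0.0917). Without scaling Lrp1 was called lower (adjusted p = 0.0207), as it was with array weights (adjusted p = 0.0387). Stard4, a soluble sterol carrier, ranged from 8.20 to 8.43 in controls and from 7.89 to 8.19 in starved arrays. The groups did not overlap, by a narrow margin, and the difference of -0.25 ± 0.12 was not called (adjusted p = 0.215).

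Of the efflux genes 0 of 3 tested were called, with 0 at an unadjusted p below 0.05, against 2030 of all 8352 tested genes. Abca1, which exports cholesterol to apolipoprotein acceptors, had signals of 7.29, 7.27, 7.49 and 7.44 in controls and 7.50, 7.33, 7.34 and 7.53 in starved arrays. The groups overlapped, with a difference of 0.06 ± 0.13 (95% interval -0.23 to 0.35, adjusted p = 0.844). Its second tested probe set gave -0.03 ± 0.21. Abcg1, the exporter to lipoprotein particles, stood at 6.73, 7.51, 7.41 and 6.45 in controls and at 7.73, 6.94, 6.88 and 6.95 in starved arrays. It was the most variable of the 27 genes in the controls (SD 0.52), and its difference of 0.10 ± 0.28 has an interval from -0.51 to 0.71 (adjusted p = 0.87). Nr1h3, the alpha form of the liver X receptor, had signals of 6.91, 6.91, 7.02 and 7.07 in controls and 6.96, 6.78, 6.88 and 6.87 in starved arrays. These overlapped, with a difference of -0.10 ± 0.15 (95% interval -0.43 to 0.23, adjusted p = 0.741).

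The lower bounds of these 3 intervals lay above the median of the synthesis enzymes, -0.87, so a fall of that size is outside each interval. Smaller falls are not, and 3 of 5 genes is a thin basis for the efflux side. These genes were dim, and the offset makes changes of dim genes look smaller. In unscaled values the medians were -1.24 for synthesis and -0.27 for efflux, while that of all probe sets was -0.33. Relative to it, synthesis stood at -0.91 and efflux at 0.07.

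**Figure D5:**
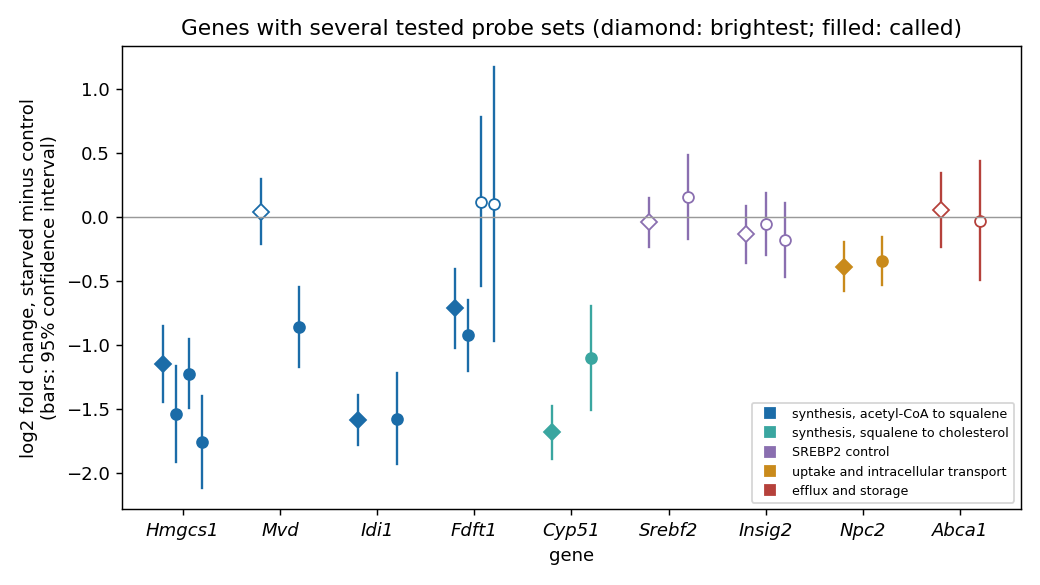
Log2 fold change, starved minus control, with 95% confidence interval (vertical axis, log2 units) for every tested probe set of the 9 genes that have at least 2. Diamonds mark the brightest probe set of a gene and filled symbols called probe sets; all probe sets of Hmgcs1, Idi1, Cyp51 and Npc2 are called lower, those of Mvd and Fdft1 are split, and those of Srebf2, Insig2 and Abca1 are not called.

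Across the members' 41 tested probe sets 22 were called lower and 0 higher, against 6.23% lower and 4.37% higher among all 13575 tested probe sets. Among the 9 genes read by more than 1 tested probe set, every probe set was called for 4 genes, some for 2 and none for 3. The 4 genes include Idi1 and Cyp51, whose dimmer called probe sets had starved means of 6.44 and 6.56, below the filter limit of 6.61.

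Neighbouring pathways were read as lists of other genes. Their counts stand against 6.94% called lower and 4.25% called higher over all tested genes. In the isoprenoid branch that leaves the route at farnesyl diphosphate, 0 of 10 tested genes were called lower and 1 rose. Their median log2 fold change was 0.04. The probe sets of Dhdds were split: the brightest gave -0.33 ± 0.12 and was not called (adjusted p = 0.109). Another was called lower (-0.56 ± 0.14, adjusted p = 0.0257), and a dimmer one gave -0.04 ± 0.35. The gene that rose was Rabggta, a subunit of the enzyme that prenylates Rab proteins (0.54 ± 0.13, adjusted p = 0.0218). Of 9 tested genes of SREBP processing and sterol-regulated degradation 0 were called, with a median of -0.04. An unadjusted p below 0.05 (limma) was reached by 5 of the 9, against 2030 of all 8352 tested genes. Srebf1, which encodes the SREBP form that favours fatty acid genes, gave -0.04 ± 0.09 (adjusted p = 0.832).

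Among 11 fatty acid genes regulated by SREBP proteins 3 fell and 1 rose, with a median of -0.01. The desaturase Scd2 fell by 0.55 ± 0.10 (adjusted p = 0.00553), but its dimmer tested probe sets gave -0.27 and 0.05 and were not called. Acly, which supplies cytosolic acetyl-CoA, fell by 0.51 ± 0.09 (adjusted p = 0.00567). Another of its probe sets was called lower (-0.49), and a dimmer one was not (-0.19, adjusted p = 0.319). Elovl5, an elongase of polyunsaturated fatty acids, rose by 0.51 ± 0.12 (adjusted p = 0.0172). Fads2 was not called by its brightest probe set (-0.01), but its other tested one was called lower (-0.87, adjusted p = 0.0312). Of 18 tested lipoprotein receptors and sterol carriers 1 fell and 2 rose, with a median of -0.03. Vldlr, the very low density lipoprotein receptor, rose by 2.05 ± 0.14 (adjusted p = 5.30e-06). The receptor Lrp4, which muscle uses at the neuromuscular junction, fell by 0.64 ± 0.10 (adjusted p = 0.0021), and the oxysterol-binding protein Osbpl2 rose by 0.36 ± 0.10 (adjusted p = 0.0352). Of 7 tested partners and targets of liver X receptors 1 fell, the phospholipid acyltransferase Lpcat3 (-0.49 ± 0.10, adjusted p = 0.00669), with a median of -0.17 over the list.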

How the data were processed

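The authors deposited 1 intensity per probe set and array on a linear scale. The sources used here do not say how they were computed from the scans. All 8 columns were used. The 64 control probe sets of 22690 were left out. An offset of 10.9, the 10th percentile over all arrays, was added, log2 was taken, and arrays were quantile normalized because trimmed means (2% dropped at each end) differed by more than 5% from their median. Quantile normalization assumes that signal distributions do not shift between groups. The test covered the 13575 probe sets whose mean exceeded 6.61, the 40th percentile on the log2 scale, and used limma 3.58.1 in R 4.3.3 (lmFit, eBayes with an intensity trend). Fold changes on the log2(value + offset) scale understate changes of dim genes.

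Symbols came from the platform annotation, which can be old, in which 20380 probe sets had 1 symbol, 691 several and 1555 none, and 20351 of the 20380 matched the RefSeq table of assembly GRCm38.p6 by gene number. A gene was read through its brightest tested probe set. All members are named. Of the other lists, the up to 3 called genes with the largest change are named. Srebf1, and Dhdds and Fads2 for their split probe sets, were added after their values were seen. The members and lists were chosen with earlier results of these data known. Alternatives were other scalings, offsets, filters, variance settings, array weights, probe set means and leaving out each array. The fit was checked on simulated data. The number of arrays limits the precision. Promoter sequences are those of RefSeq. Python 3.11.15 and matplotlib 3.10.9 drew the plots.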

Additional observations from a re-analysis of the deposited data

Results flagged for a closer look

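In 58 groups of 4 arrays, 7 single values stood far from the other 3 of their group, where chance gives about 1 in 20. For Fdft1, control C was high at 10.49, against 10.13 to 10.17 in the other controls. For Cyp51, control C was low at 9.86, against 10.01 to 10.04. For Dhcr7, control B was high at 10.90, against 10.67 to 10.68, and for Insig2, control D was high at 9.25, against 9.03 to 9.05. For Stard4, starved F was low at 7.89, against 8.15 to 8.19. For Abcg1, starved E was high at 7.73, against 6.88 to 6.95. The Gapdh 3′ to 5′ log2 ratio of control B was 1.40, against -0.22 to -0.12 in the other controls. Without the array concerned, Fdft1, Cyp51 and Dhcr7 were still called lower and Insig2, Stard4 and Abcg1 were still not called.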

How the results depend on the processing

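Each result was computed under 19 alternatives. Of the comparisons of single genes with their main value, 489 kept direction and side of the threshold, 11 lost a call, 5 gained a call and 1 reversed: Mvd was at -0.41 with the mean of its probe sets, by construction an average of a called and an uncalled probe set. The number of synthesis enzymes called lower was 11 to 14 in all alternatives and 11 to 14 when each array was left out. For uptake and transport the count was 1, but 2 in unscaled values and with array weights, and 0 with median centring, with 75th percentile centring and without an intensity trend. The median of the synthesis enzymes (-0.87) was -1.24 unscaled, -0.92 with median centring, -0.81 with an offset at the 25th percentile, -0.79 with a filter at the 60th percentile, -0.95 with array weights, and -0.91 to -0.74 when each array was left out. The median of the efflux genes (0.06) was -0.27 unscaled and -0.10 to 0.10 when each array was left out, lowest without starved E and -0.07 without control D; the filter at the 60th percentile left 0 of them. The median of all 27 genes (-0.41) was -0.80 unscaled, -0.48 with median centring and -0.55 with the filter at the 60th percentile. Causes of these shifts were not tested, apart from the unscaled values, where the median of all probe sets was -0.33. Over all genes 580 were called lower and 355 higher, against 1027 and 45 unscaled; the number of higher genes was 219 with median centring and 226 without starved F. No paired analysis was possible because the labels give the groups different letters. The table has no detection calls, so signal over background is not known for dim signals, such as those of Npc1, Abcg1 and Nr1h3 and of the called enzyme Mvk, whose starved mean of 6.69 was lower than theirs.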
